A study of Mus musculus with 6 samples.

Results

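Transcripts of the lens were measured in 6 pools of embryonic mouse eye tissue labelled as retinal pigment epithelium (RPE), a single sheet of melanin-bearing cells that wraps the neural retina. The set is a list of 30 genes, chosen by name for their role in the lens: 13 crystallins, 10 other proteins of lens fibre cells and 7 regulators. Of these, 26 had a probe set that the platform annotation assigned to that gene alone, and the one with the highest mean over the 6 arrays stood for the gene, out of 18193 genes named in this way. Crygc, Cryge, Lctl and Lgsn had no such probe set. A mean log2 value of at least 5 was required for testing, which 15 members met. The 11 below it were Crygs, Bfsp1, Mip, Gja3, Birc7, Dnase2b, Foxe3, Prox1, Hsf4, Sox1 and Grifin. Crybb2 was nearest above the limit (mean 5.52), and Grifin (4.85) and Birc7 (4.80) were nearest below it.

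Embryos were taken at embryonic day 13.5. The series sets 3 albino pools against 3 pools from pigmented control embryos, with 1 array a pool and 3 to 4 littermates in each pool. Neither the mutated gene nor the strains are named in the labels. All 6 pools share the same labelled age, RNA amount and range of pooled littermates. The labels do not show whether each pool was dissected alike. The labels' protocol has the lens, cornea and neural retina taken off the eyecup, whereas the sample descriptions speak of the whole region of the eye. Values are log2 expression values made by robust multi-array averaging (RMA), and a difference of 1 is 2-fold. Array medians lay between 5.19 and 5.22. Genes of the RPE itself were well measured, with means of 10.27 to 10.68 on the 6 arrays over 12 tested markers, among them Tyr and Pmel, which serve melanin formation. Levels of different genes are not compared here, because probe sets differ in how strongly they bind.

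The lens is a ball of 2 cell forms. A front layer of dividing epithelial cells, kept by factors such as FOXE3, gives rise at its rim to fibre cells, which lengthen, fill with crystallins and later lose their nuclei. Crystallins are the proteins that give the lens its transparency and refractive power. The alpha crystallins belong to the small heat shock proteins, whereas beta and gamma crystallins form a family of their own, and the gamma crystallins are typical of fibre cells. MAF, SOX1 and PROX1 are transcription factors that drive crystallin genes in fibre cells. Some crystallins are also made outside the lens, and alpha B crystallin is abundant in muscle and in many stressed tissues.

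On 1 array, that of albino replicate 3, transcripts of 8 crystallin genes were far below their level on every other array. These were Cryaa, Cryba1, Cryba2, Cryba4, Crybb1, Crybb3, Crygb and Crygd. Their mean log2 value was 4.31 there, against 6.96 and 7.35 on albino replicates 1 and 2 and 7.08, 6.98 and 7.24 on pigmented replicates 1, 2 and 3. The other 7 tested members together read 7.14 on albino replicate 3 and 7.32 to 7.41 on the other arrays. This low array was known when the genes were chosen, so these values are a description and carry no test. In such pools fewer lens cells and less lens RNA per cell cannot be told apart.

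**Figure D1:**
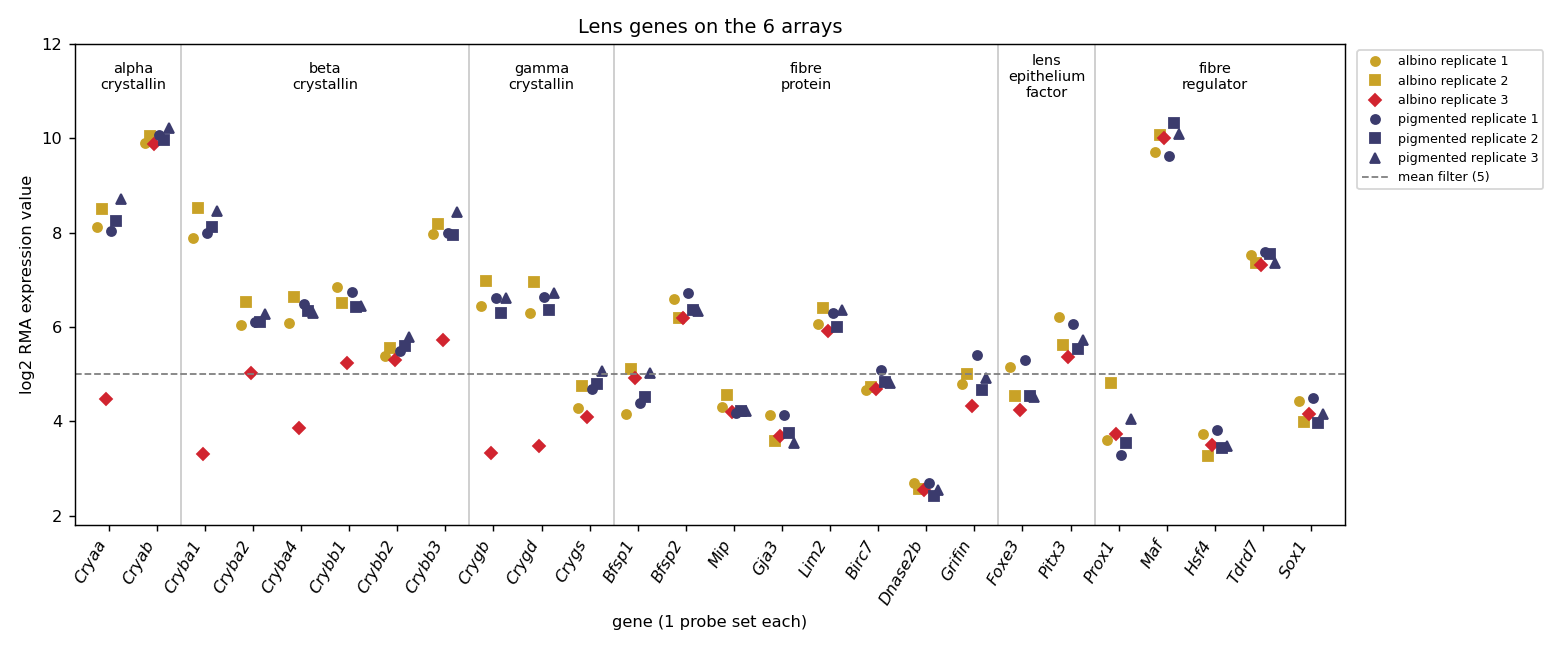
Log2 RMA values (vertical axis) of the 26 measured lens genes (horizontal axis, grouped by role), 1 point per array; gold marks albino replicates 1 and 2, red albino replicate 3 and dark blue the pigmented arrays, and the dashed line is the filter of 5 on the mean. For 8 crystallins the red point lies at least 1 log2 unit below all other points, whereas for Cryab, Maf and Tdrd7 it lies beside them.

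Among the alpha crystallins, only 1 of the 2 had this drop. Cryaa, which encodes the lens-rich alpha A crystallin, read 8.12, 8.51 and 4.48 on albino replicates 1, 2 and 3, and 8.03, 8.24 and 8.71 on the pigmented arrays. Albino replicate 3 lay 3.55 log2 units below the lowest of the other 5 arrays. Cryab, the gene of alpha B crystallin, read 9.90, 10.05 and 9.87 (albino) and 10.07, 9.97 and 10.21 (pigmented). Here albino replicate 3 was lowest by 0.03, and on the second Cryab probe set it read 7.42, within the 7.32 to 7.83 of the others. The third Cryab probe set was dim, with a mean of 2.92.

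Of the 6 beta crystallins, 5 were at least 2-fold lower on albino replicate 3 than on any other array. The largest gap was that of Cryba1, which gives rise to the beta A3 and A1 crystallins. It read 7.88, 8.53 and 3.31 (albino) and 7.99, 8.11 and 8.46 (pigmented), a gap of 4.57. Crybb3 followed with 7.98, 8.19 and 5.73 against 8.0, 7.96 and 8.43. Cryba4 read 6.09, 6.63 and 3.86 against 6.48, 6.33 and 6.30, and for both genes the gap was 2.23. For each of these 2 genes the other 5 arrays lay within 0.54 of each other. Crybb1 read 6.85, 6.50 and 5.24 (albino) and 6.74, 6.42 and 6.44 (pigmented). Cryba2 read 6.05, 6.53 and 5.02 against 6.10, 6.11 and 6.28, so that its gap of 1.03 was the smallest of the 8. The exception was Crybb2, whose product becomes a main crystallin of the lens only after birth. It read 5.38, 5.56 and 5.29 (albino) and 5.50, 5.59 and 5.79 (pigmented), with a gap of 0.09, although it lies next to Crybb3 on chromosome 5.

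Both gamma crystallins that passed the filter were low on that array. Crygb read 6.44, 6.98 and 3.33 (albino) and 6.62, 6.30 and 6.61 (pigmented), a gap of 2.97. Crygd, which lies in a run of genes on chromosome 1 in the order Cryge, Crygd, Crygc and Crygb, read 6.30, 6.96 and 3.47 against 6.64, 6.36 and 6.71, a gap of 2.83. Genes of this cluster are close copies, so probes may bind more than 1 of them. Crygs, which encodes the gamma S crystallin of older fibres, was below the filter at 4.28, 4.75 and 4.09 (albino) and 4.68, 4.80 and 5.06 (pigmented).

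Few other transcripts were low in this way on albino replicate 3. At a limit of 2-fold below the lowest of the other 5 arrays, 15 of 23591 tested probe sets passed (0.0636%), and 8 of the 15 tested lens genes did. Of those 15 probe sets, 12 were assigned to crystallins and 3 to Xist, with 0 assigned to anything else. Besides the 8 members these were Cryga (gap 4.98), Crygn (1.52), Crygf (1.52) and a probe set assigned to a pair of gamma crystallin genes. Without the filter on dim probe sets the same 15 passed out of 45037. Among the 23591 tested probe sets the next gap after them was 0.55, on a probe set of Ccn3, which encodes a secreted matrix protein. Below the filter, the second probe set of the member Mip had a gap of 0.58. Among 12098 tested genes, each by its 1 chosen probe set, which for Ccn3 is another one, the 8 members held ranks 3 to 8, 11 and 12 by the size of the gap. Rank 13 was Capn3, a protease gene with a form made in the lens, at a gap of 0.49. The array of albino replicate 3 was the lowest of the 6 for 13 of 15 tested members, against 10.2% of all tested probe sets. At the same 2-fold limit, pigmented replicate 1 also had 15 probe sets below all other arrays and pigmented replicate 2 had 8. Neither held a tested member (0 of 15 each). Albino replicate 1 had 1 such probe set, and albino replicate 2 and pigmented replicate 3 had 0.

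**Figure D2:**
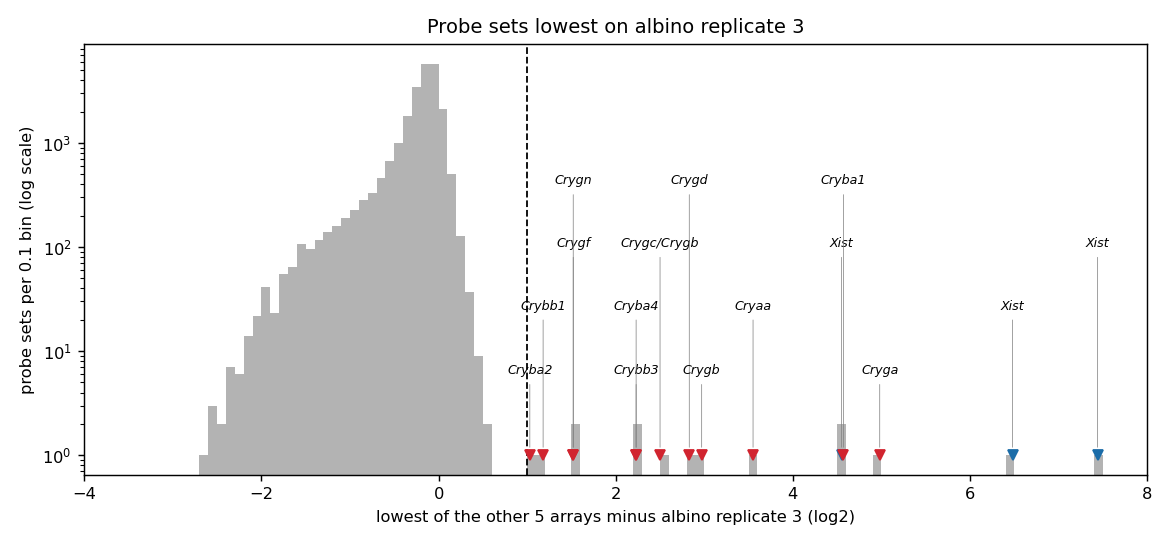
Number of tested probe sets (vertical axis, log scale, bins of 0.1) by the lowest of the other 5 arrays minus albino replicate 3 (horizontal axis, log2); red triangles mark probe sets of crystallins and blue triangles those of Xist, and the dashed line is 2-fold. All 15 probe sets to the right of the line are of crystallins or Xist, and the bulk of the 23591 ends near 0.55.

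Xist, the RNA that silences an X chromosome in female cells, read 4.47 on albino replicate 3 and 10.95 to 12.15 on the other arrays. The Y-linked genes Uty, Eif2s3y and Kdm5d were highest there, at 7.46, 8.41 and 8.10. On the other arrays Uty read 2.04 to 6.87, Eif2s3y 2.58 to 7.88 and Kdm5d 2.35 to 7.66, each lowest on pigmented replicate 2. The part of the embryos' sex in the crystallin values was not tested.

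The 8 crystallins were steady on the other 5 arrays. Each spanned 0.43 to 0.68 there, with an SD of 0.19 to 0.29 (n = 5), whereas its gap to albino replicate 3 was 1.03 to 4.57. Of these 8 genes, 5 were highest on albino replicate 2 and 2 on pigmented replicate 3. Between the arrays numbered 1, the albino value was lower for 6 of the 8 genes, with a median difference of -0.08. Between the arrays numbered 2 it was lower for 0 of 8, with a median of 0.36, and between those numbered 3 for 8 of 8, with a median of -2.97. On albino replicate 3, 5 of the 8 (Cryaa, Cryba1, Cryba4, Crygb and Crygd) read under 5, the level of the filter. Their gaps are differences between array values and give no exact ratio of RNA.

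Upstream sequence of these genes was searched for 3 motifs of factors known in the lens. Of the 30 members, 27 had a window from 250 bases before to 50 bases after a RefSeq transcript start (GRCm38.p6). The core motif bound by MAF proteins, TGCTGA on either strand, lay in the windows of 6 of the 8 low crystallin genes (75.0%). It lay in 8 of the 19 other member genes (42.1%) and in 19.5% of all 32851 windows. A member gene was counted if any of its windows held the motif, whereas the share of all windows is by single window. SOX sites (ACAAAG) were in 4 of the 8 (50%), in 6 of the 19 (31.6%) and in 18.7% of all windows. Heat shock elements (GAANNTTC) were in 0 of the 8, in 1 of the 19 (5.26%) and in 7.86% of all windows. Matches of these motifs did not overlap in the 8 genes, and a match is a description, not a shown binding site. The 200 bases before the start are given for 4 low crystallin genes with the MAF motif and for Crygd, which has none in its window, with that motif in capitals. They are Cryaa at chr17:31677731-31677930 (plus strand), Cryba1 at chr11:77725294-77725493 (minus strand), Cryba4 at chr5:112252519-112252718 (minus strand), Crybb1 at chr5:112255620-112255819 (plus strand) and Crygd at chr1:65063441-65063640 (minus strand).
Cryaa: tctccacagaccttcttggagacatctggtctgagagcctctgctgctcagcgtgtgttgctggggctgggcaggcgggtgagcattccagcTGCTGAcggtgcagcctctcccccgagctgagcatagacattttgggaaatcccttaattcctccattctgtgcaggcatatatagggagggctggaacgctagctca
Cryba1: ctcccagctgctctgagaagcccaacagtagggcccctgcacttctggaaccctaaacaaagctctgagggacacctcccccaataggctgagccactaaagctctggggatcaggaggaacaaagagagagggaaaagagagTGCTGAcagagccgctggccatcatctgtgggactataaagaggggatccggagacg
Cryba4: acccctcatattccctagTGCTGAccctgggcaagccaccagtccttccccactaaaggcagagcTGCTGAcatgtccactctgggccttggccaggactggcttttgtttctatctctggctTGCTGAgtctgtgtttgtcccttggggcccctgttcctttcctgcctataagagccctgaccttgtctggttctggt
Crybb1: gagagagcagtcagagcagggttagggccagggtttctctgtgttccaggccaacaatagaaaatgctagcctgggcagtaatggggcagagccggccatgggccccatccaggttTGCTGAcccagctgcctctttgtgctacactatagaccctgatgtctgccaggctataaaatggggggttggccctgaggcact
Crygd: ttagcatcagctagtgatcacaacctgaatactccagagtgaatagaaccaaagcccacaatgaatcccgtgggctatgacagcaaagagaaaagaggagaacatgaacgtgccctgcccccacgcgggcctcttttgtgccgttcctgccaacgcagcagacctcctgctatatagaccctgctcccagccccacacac

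Counted from the transcript start, the MAF motif begins at -108 in Cryaa, at -57 in Cryba1 and at -84 in Crybb1. Cryba4 has 3, beginning at -182, -135 and -77. Cryba4 and Crybb1 are neighbours on chromosome 5, and both were low on albino replicate 3.

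Of 8 other fibre proteins with a probe set, 0 were 2-fold lower on albino replicate 3. Only Bfsp2 and Lim2 passed the filter, and for the 6 dim ones a lower level may not be detectable. Bfsp2, which encodes phakinin of the beaded filament, the fibre cell's own intermediate filament, read 6.59, 6.18 and 6.20 (albino) and 6.73, 6.36 and 6.33 (pigmented). Lim2, the gene of a fibre membrane protein, read 6.06, 6.40 and 5.92 against 6.30, 5.99 and 6.35. On albino replicate 3 Bfsp2 lay 0.02 above its lowest array, and Lim2 was lowest by 0.07. Bfsp1, which encodes filensin, the partner of phakinin, was dim, and albino replicate 3 read 4.91 among values of 4.16 to 5.10. Mip, the gene of the fibre water channel aquaporin 0, read 4.19 there and 4.17 to 4.56 elsewhere, but its second probe set read 3.28 against 3.86 to 4.67. Gja3, which encodes a gap junction protein of fibres, read 3.69 among 3.55 to 4.13, but its second probe set read 2.39 against 2.61 to 4.25. Dnase2b, the enzyme that breaks down fibre DNA, read 2.54 among 2.42 to 2.69. Birc7, an inhibitor of apoptosis also found in the lens, read 4.69 among 4.66 to 5.08. Grifin, the gene of a galectin-related lens protein, was lowest on this array too, at 4.32 against 4.66 to 5.41.

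Both factors of the lens epithelium were lowest on albino replicate 3, but by far less than 2-fold. Pitx3, a homeobox factor needed for the early lens, read 6.21, 5.62 and 5.37 (albino) and 6.07, 5.54 and 5.72 (pigmented), so albino replicate 3 was lowest by 0.17. Foxe3, which keeps lens epithelial cells dividing, was below the filter at 5.15, 4.53 and 4.24 (albino) and 5.29, 4.54 and 4.51 (pigmented), a gap of 0.27. Both genes were highest on the replicate 1 arrays of both genotypes. Genes shared by lens epithelium and other eye tissue were not 2-fold lower either, in 0 of 12 tested genes of a list of epithelium and placode markers. Pax6, the eye master regulator, read 9.65 on albino replicate 3 and 9.72 to 10.01 elsewhere. Gja1, the gene of a gap junction protein of epithelial cells, read 12.58 there and 12.71 to 13.16 elsewhere.

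None of the 5 regulators of fibre cells was 2-fold lower on albino replicate 3. Maf read 9.71, 10.06 and 10 (albino) and 9.62, 10.33 and 10.09 (pigmented), and albino replicate 3 lay inside that range. It is also made outside the lens, as is Tdrd7, which encodes an RNA granule protein needed for lens clarity and read 7.53, 7.36 and 7.32 against 7.58, 7.54 and 7.36, lowest on albino replicate 3 by 0.04. Prox1 was dim and varied most of the 26 genes over the other 5 arrays, with an SD of 0.61 (n = 5), reading 3.60, 4.82 and 3.72 (albino) and 3.28, 3.53 and 4.04 (pigmented). Sox1 read 4.16 on albino replicate 3 among 3.97 to 4.50, and Hsf4, the heat shock factor of fibre cells, 3.49 among 3.26 to 3.81. All 3 are so dim that a lower level may not be detectable.

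In the wider list of other lens genes, 3 of 12 tested were 2-fold lower on albino replicate 3, and they were the crystallins Cryga, Crygf and Crygn. Cryga read 2.85 there and 7.83 to 8.29 elsewhere. The other 9, among them Caprin2, Mafg and Jag1, lay between -0.21 and 0.39 from the median of the other arrays. Lists of the other cell types had 0 genes past 2-fold. The median gene of the cornea and surface ectoderm list lay 0.24 below the median of the other 5 arrays (10 tested), with 4 of 10 genes lowest on this array, and that of the RPE list lay 0.09 below it (12 tested, 1 lowest). Neural retina lay 0.18 above (8 tested, 0 lowest), periocular mesenchyme 0.06 below (9 tested, 1 lowest) and erythroid genes 0.16 below (5 tested, 3 lowest). The skeletal muscle list had 0 genes lowest, and over all tested probe sets the share was 10.2%. Skeletal muscle (13 tested) lay 0.57 above a median that mixes the genotypes: its list mean was 9.50 and 9.51 on albino replicates 1 and 2, lower at 8.79 on albino replicate 3, and 7.21 to 8.23 on the pigmented arrays. The mean log2 value of the cornea list was 8.053 on albino replicate 3 and 8.085 to 8.717 on the others. The part of these tissues in the crystallin values was not tested.

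**Figure D3:**
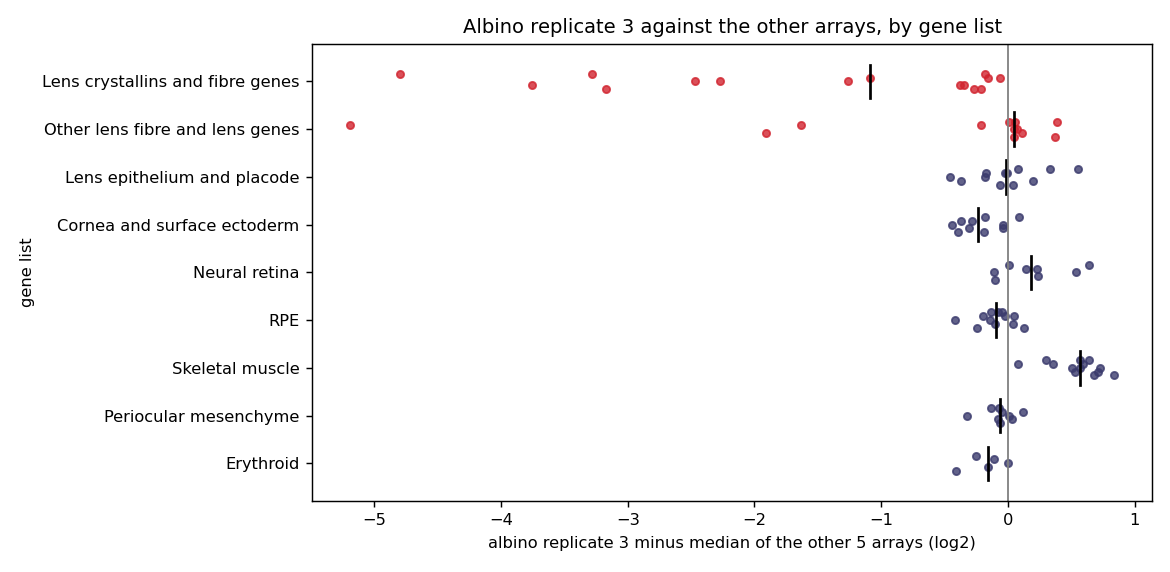
Albino replicate 3 minus the median of the other 5 arrays (horizontal axis, log2) for each tested gene of 9 lists (vertical axis); points are genes, black bars list medians, and red marks the lens lists. Points below -1 occur in both lens lists and are crystallins, while all other lists lie between -0.46 and 0.84.

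Between the genotypes no lens gene passed the test. With limma over 23591 probe sets, 0 of 15 tested members had an adjusted p under 0.05, as did 0 of all probe sets (0%). At an unadjusted p under 0.05 there were 0 members and 1104 probe sets (4.68%). For the 8 low crystallins, albino replicate 3 raised the residual SD (0.55 to 2.02) along with the difference. The count of members can therefore not be compared with 4.68%. All 15 members had lower means in albino pools, with a median difference of -0.30, where all tested probe sets had a median of 0.05 and 35.6% were lower. That direction rested on 1 array. With albino replicate 3 left out, 8 of the same 15 genes were lower and 7 higher, with a median of -0.01, and all 15 lay within 0.20 of 0.

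Cryba1 averaged 6.57 ± 2.84 over the 3 albino arrays and 8.19 ± 0.24 over the 3 pigmented arrays (mean ± SD), which is a difference of -1.61 (95% confidence interval -4.69 to 1.47, limma adjusted p = 0.999). Without albino replicate 3 it was 0.02 (-0.59 to 0.62). Cryaa averaged 7.04 ± 2.22 and 8.33 ± 0.35 (mean ± SD, n = 3 each), with a difference of -1.29 (-3.72 to 1.14), or -0.01 (-0.61 to 0.59) without that array. For Crygd the difference went from -0.99 (-3.01 to 1.02) to 0.06 (-0.51 to 0.63), and for Crygb from -0.93 (-3.07 to 1.21) to 0.20 (-0.31 to 0.71). Cryba4 went from -0.84 to -0.01, Crybb3 from -0.83 to -0.05, Crybb1 from -0.34 to 0.14 and Cryba2 from -0.30 to 0.13.

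The members without the drop gave narrower bounds. Skeletal muscle is a tissue that makes Cryab. The mean log2 value of its 13 genes was 8.79 to 9.51 (albino) and 7.21 to 8.23 (pigmented), and their part in these differences was not tested. Cryab differed by -0.14 (95% confidence interval -0.40 to 0.11), Crybb2 by -0.22 (-0.51 to 0.07), Tdrd7 by -0.09 (-0.35 to 0.17) and Bfsp2 by -0.15 (-0.54 to 0.24). Averaging the probe sets of Cryab gave -0.04, and Bfsp2 went from -0.28 without albino replicate 1 to -0.02 without pigmented replicate 1. Lim2, Maf and Pitx3 differed by -0.09, -0.09 and -0.04. Without albino replicate 3 the signs of Lim2 (0.02) and Pitx3 (0.14) turned, and that of Maf turned without albino replicate 1 (0.02) or pigmented replicate 2 (0.07). The genotypes did not overlap for 0 of 15 tested members, where the share of all tested probe sets was 10.8%. Albino replicate 3 was the lowest array for 13 of these 15 members. For these 13 the albino arrays could not all lie above the pigmented ones, so the count cannot be compared with 10.8%. Among the dim members Birc7 was the only one whose genotypes did not overlap, at 4.66, 4.72 and 4.69 (albino) and 5.08, 4.83 and 4.82 (pigmented).

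**Figure D4:**
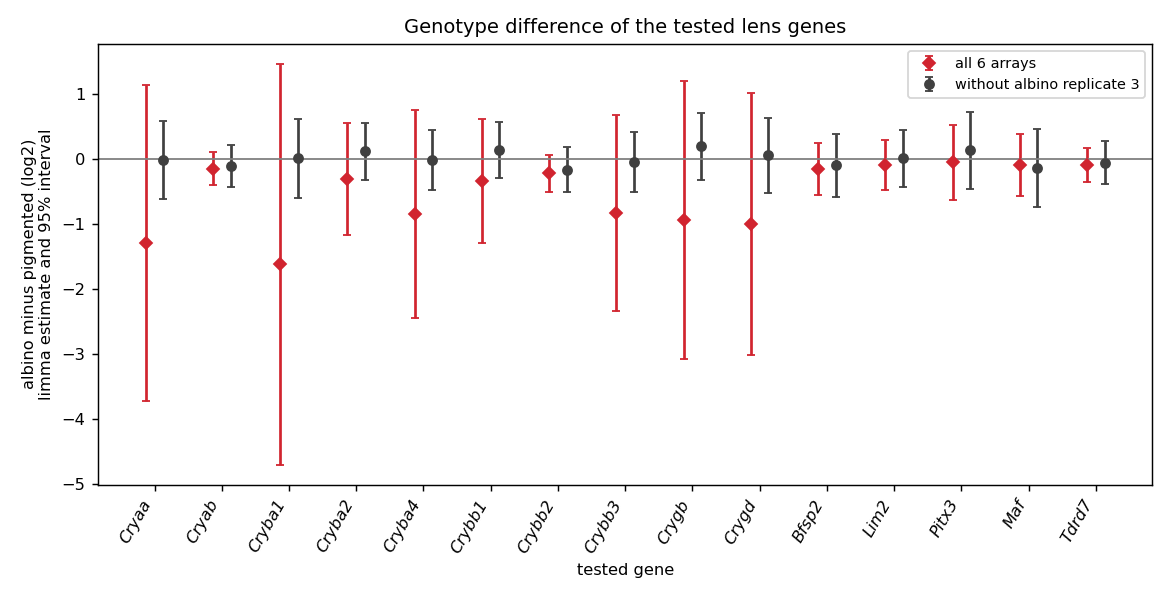
Albino minus pigmented difference (vertical axis, log2, limma estimate with its 95% confidence interval) for the 15 tested lens genes (horizontal axis); red diamonds use all 6 arrays and dark circles leave out albino replicate 3. All red intervals include 0, and the dark estimates lie between -0.16 and 0.20.

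The replicate 1 arrays of both genotypes stood apart over much of the whole table. Of the 15 tested members, 11 overlapped between the replicate 1 arrays and the others. Both replicate 1 arrays lay above the other 4 for 3 of 15 tested members, Crybb1, Bfsp2 and Pitx3, against 43.5% of all tested probe sets. They lay below the other 4 for 1 of 15, Maf, where the share of all tested probe sets was 15.7%. Albino replicate 3 is among those 4 and was the lowest array for 13 of the 15 tested members. For these 13, replicate 1 could not lie below all 4, so the count below cannot be compared with 15.7%. Among dim members both lay above for Foxe3, Gja3, Dnase2b, Hsf4 and Sox1, and below for Bfsp1. Apart from Crybb1, crystallins overlapped between replicate 1 and the other arrays. The labels do not say what a replicate number shares.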

How the data were processed

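Each pool's RNA (100 ng of total RNA, labelled with a 3'-primed kit) was hybridised to 1 array. The authors' deposited values are on the log2 scale. Affymetrix Expression Console 1.1 and RMA are named in the submitters' processing notes. Quantile normalization within RMA removes shifts shared by all transcripts, and the sources used here do not give whether 1 run held all arrays. Of 45101 probe sets, 64 are controls; 34945 named 1 gene, 932 several and 9160 none in the annotation used, and 34741 matched GRCm38.p6 by Entrez ID. The number of arrays limits the precision.

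Genotypes were compared as albino minus pigmented with limma's lmFit and eBayes (limma 3.58.1, R 4.3.3; two-sided) over all non-control probe sets with a mean of at least 5, with Benjamini-Hochberg adjustment and a threshold of 0.05; the fit was tested on simulated data. Deviations of same-numbered arrays correlated at 0.863, 0.687 and 0.448 over tested probe sets. These are positive, as paired arrays could give, but the labels state no pairing. Over the tested members the deviations correlated at -0.0275, -0.214 and -0.549. The values given are from the fit without pairing, and the replicate block was an alternative. With that block the standard error fell from 0.165 to 0.055 for Bfsp2, from 0.199 to 0.085 for Maf and from 0.242 to 0.111 for Pitx3. For Lim2 it was 0.162 without the block and 0.169 with it. All 30 members are named. Outside them, genes were taken from fixed marker lists and from the 10 genes farthest below and above on albino replicate 3. Gja1 was a single planned gene, and Ccn3 was named after its value was seen. The members and lists were chosen with earlier results of these data known. Protein sequences were not used here. Alternatives covered scaling, filters, probe set choice, array weights, the replicate block and leaving out each array.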

Additional observations from a re-analysis of the deposited data

How the results depend on the processing

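Of the members and of all probe sets, 0 passed in limma under every alternative run: median centring, cyclic loess, no filter, a filter at 6, averaged probe sets, without probe sets marked as possibly cross-hybridising, array weights, the replicate block and each array left out. The smallest adjusted p of a member was 0.262, with the replicate block (Bfsp2, unadjusted p = 0.0410); the block changed no call. The counts at an unadjusted p under 0.05 moved most, from 1104 to 4243 with that block, 3510 with array weights, 611 without albino replicate 2 and 577 without pigmented replicate 2.

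The median difference of the tested members was -0.30, between -0.50 (array weights) and -0.15 (no filter, 26 genes) under the settings that keep all arrays, and -0.49 to -0.01 with 1 array left out. Under both other scalings 15 of 15 members stayed lower. With 1 array left out, differences ranged from -2.59 to 0.018 for Cryba1, -0.63 to 0.13 for Cryba2, -0.66 to 0.14 for Crybb1, -1.62 to 0.20 for Crygb, -1.69 to 0.06 for Crygd, -0.22 to 0.017 for Lim2, -0.29 to 0.068 for Maf and -0.28 to 0.14 for Pitx3. Without albino replicate 3 the sign turned for Cryba1 (0.018), Cryba2 (0.13), Crybb1 (0.14), Crygb (0.20), Crygd (0.06), Lim2 (0.017) and Pitx3 (0.14). Pitx3 also turned without albino replicate 2 (0.013) or pigmented replicate 1 (0.10), and Maf without albino replicate 1 (0.017) or pigmented replicate 2 (0.068). With 1 array left out the difference kept its sign and ranged from -0.20 to -0.08 for Cryab, -0.29 to -0.14 for Crybb2, -0.28 to -0.02 for Bfsp2 and -0.16 to -0.05 for Tdrd7. The median gap of albino replicate 3 over the tested members was 1.03, between 0.94 (cyclic loess) and 1.11 (filter at 6), but 0.08 without the filter, which adds 11 dim genes. Probe set signal near the dim end limits what can be seen of Foxe3, Prox1, Hsf4, Sox1 and most fibre membrane genes.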

Other observations

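On the higher side of albino replicate 3 the leading genes were of another kind. Ngp, which encodes a neutrophil granule protein, read 8.12 there and 6.09 to 6.65 on the other arrays. Stfa3, a stefin gene active in myeloid cells, read 7.89 against 5.85 to 6.45, and Ltf, the lactoferrin gene, 6.51 against 4.76 to 5.49. S100a9, a calcium-binding protein gene of neutrophils, read 8.85 against 6.90 to 8.17. These values are a description of 1 array, and their relation to the crystallin values was not tested.

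Probe sets of Maf disagreed on the replicate 1 arrays. One probe set read 5.0 and 5.05 on albino and pigmented replicate 1 and 6.31 to 6.74 on the other 4 arrays, and a dim one read 4.05 and 3.91 against 4.97 to 5.12. Another read 6.34 and 6.37 against 5.48 to 5.80, the opposite direction, while 2 more were level, at 7.0 to 7.15 and at 4.24 to 4.46 on all 6 arrays.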
